A study of Mus musculus with 16 samples.

Results

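The comparison described here is that of GFP+ with GFP- cells, sorted after dissociation of the olfactory mucosa, in S100a5-tauGFP mice after exposure to 2-octanone, an 8-carbon ketone odorant. Its members were chosen by the sample titles, which give 4 GFP+ and 4 GFP- arrays after the odorant, 8 of the 16 arrays of the series, and by the array annotation, which ties 19572 of 28846 probe sets to a gene. Each replicate number stands for 1 pool of 3 mice, and the same pool gave both fractions, so every GFP+ array was set against the GFP- array of its own pool. The mice were of both sexes, 7 to 12 weeks old, and sat singly in chambers of flowing clean air for 40 h. From hour 26 the octanone pools received a 10 s pulse of the odorant every 20 min. The other 8 arrays hold the same sort from 4 pools that received filtered air as vehicle. They show how the same sort came out without the odorant, and they share the estimate of spread behind the tests given here.

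All groups carry the reporter. In this strain a tauGFP fusion protein reports the activity of S100a5, a gene for a calcium-binding protein whose transcription in olfactory sensory neurons follows their recent stimulation. The sort therefore divides cells by reporter brightness and not by cell type. The GFP- fraction can hold neurons with a dim reporter and any other cell of the dissociated mucosa. Markers of other cells also gave signal in GFP+ cells: sustentacular list means were 10.14 to 11.12 there and 10.90 to 12.14 in GFP- cells. The purity of the fractions was not tested. Expression was measured on Clariom S arrays, and the deposited values are read as normalised signals on the log2 scale, so that a difference of 1 is a doubling. A total of 4 arrays per group limits the precision. Over the 8 arrays the median gene signal was 7.65 to 7.73 in GFP+ and 7.92 to 7.99 in GFP- cells.

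An olfactory sensory neuron expresses a single odorant receptor gene out of a very large family. Odorant binding raises cyclic AMP through the G protein subunit Golf and type III adenylyl cyclase. Cyclic AMP opens a cyclic nucleotide-gated channel, and calcium entering there opens the chloride channel Ano2. New neurons arise throughout life from basal cells and pass through an immature stage marked by Gap43 and Gng8 before they express Omp. The mucosa also holds sustentacular cells, Bowman's glands, microvillar cells and, in a dissociated preparation, blood and marrow leukocytes.

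The promoters of 4 genes are shown as examples: a pair of neighbouring odorant receptors that went opposite ways, and a pair of neutrophil genes that were among the lowest in GFP+ cells. The sequences are from RefSeq on GRCm38.p6, 300 bases around the annotated start, written 5' to 3' on the strand of the gene. Capitals mark a match to the site of the EBF family, TCCC and GGGA with 2 free bases between them (Olfr99), or to the site GAGGAAGT of PU.1 on either strand (S100a8 and Mmp8). Most promoters of these groups lack such a match: the PU.1 site was in 4 of 13 promoters of neutrophil markers. The EBF site was in 1 of 205 promoters of receptors lower in GFP+ cells.
Olfr99, lower in GFP+, chr17:37280369-37280668, minus strand: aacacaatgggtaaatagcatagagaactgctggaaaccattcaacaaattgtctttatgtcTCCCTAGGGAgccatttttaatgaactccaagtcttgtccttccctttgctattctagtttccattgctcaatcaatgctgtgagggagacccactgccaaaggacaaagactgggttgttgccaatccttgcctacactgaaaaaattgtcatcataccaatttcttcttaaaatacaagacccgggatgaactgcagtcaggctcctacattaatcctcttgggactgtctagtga
Olfr101, higher in GFP+, chr17:37300435-37300734, minus strand: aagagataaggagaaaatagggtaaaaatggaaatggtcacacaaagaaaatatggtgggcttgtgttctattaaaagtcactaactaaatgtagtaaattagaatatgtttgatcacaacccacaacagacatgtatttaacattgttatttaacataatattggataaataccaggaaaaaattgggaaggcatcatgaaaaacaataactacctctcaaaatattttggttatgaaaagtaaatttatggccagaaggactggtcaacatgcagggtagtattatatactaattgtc
S100a8, lower in GFP+, chr3:90668821-90669120, plus strand: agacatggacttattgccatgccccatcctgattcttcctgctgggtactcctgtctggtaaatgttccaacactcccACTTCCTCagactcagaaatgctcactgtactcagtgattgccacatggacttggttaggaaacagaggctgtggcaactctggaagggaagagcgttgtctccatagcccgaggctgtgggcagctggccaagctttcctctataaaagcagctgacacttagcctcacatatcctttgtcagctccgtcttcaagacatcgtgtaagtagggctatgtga
Mmp8, lower in GFP+, chr9:7558179-7558478, plus strand: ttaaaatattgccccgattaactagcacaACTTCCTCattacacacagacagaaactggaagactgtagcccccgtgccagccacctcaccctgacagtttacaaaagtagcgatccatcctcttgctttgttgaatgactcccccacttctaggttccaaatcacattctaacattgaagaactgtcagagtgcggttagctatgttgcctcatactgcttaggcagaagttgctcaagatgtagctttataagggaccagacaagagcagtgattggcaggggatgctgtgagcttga

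Promoter sequences were found for 15691 of the 19505 gene symbols. The PU.1 site was in 3.53% of them, in 7.46% (114 of 1528) of the promoters of genes other than receptors that were lower in GFP+ cells, and in 2.87% of those that were higher. Spi1, which encodes PU.1, a transcription factor of myeloid and B cells, read 9.35, 9.98, 10.26 and 12.48 in GFP+ cells of pools 1 to 4 and 14.85, 15.68, 15.06 and 15.89 in GFP- cells. The homeodomain site TAATTA was in 5.28% of all promoters. It was in 19.8% of the promoters of receptors that were higher in GFP+ cells, in 21.5% of those that were lower and in 15.5% of those not called. The EBF site was in 1.17% of all promoters and in 1 of 368 promoters of the higher and 1 of 205 of the lower receptors. These are matches of letters within 300 bases on either strand and were not tested as binding sites.

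After 2-octanone, odorant receptors differed between the fractions in both directions, leukocyte and cell division genes were lower in GFP+ cells, and 10 of 12 markers of mature neurons were not called. At an adjusted p under 0.05 by limma, with Benjamini-Hochberg adjustment over the 19572 probe sets, 3855 were called (19.7%), 1718 higher (8.78%) and 2137 lower (10.9%) in GFP+ cells. Differences over 4-fold were found for 142 genes higher in GFP+ cells, of which 138 were odorant receptors, and for 674 lower, of which 141 were receptors. The median difference of all genes was 0.12. Of the 1718 higher genes, 1667 had the same sign in all 4 pools, and of the 2137 lower genes 2105 did. Across genes, the difference in a pool correlated with that in another pool at r = 0.731 to 0.844 over the 6 pairs of pools, as a description in which genes are not independent replicates. The number of higher genes was 891, 1130 and 1048 when pool 2, 3 or 4 was left out, and it depended on the scaling. With each array centred on its median the median difference became 0.37, and 83.8% of the called genes were higher in place of 44.6%. In bulk fractions, fewer cells of a type and less RNA per cell cannot be told apart.

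**Figure D1:**
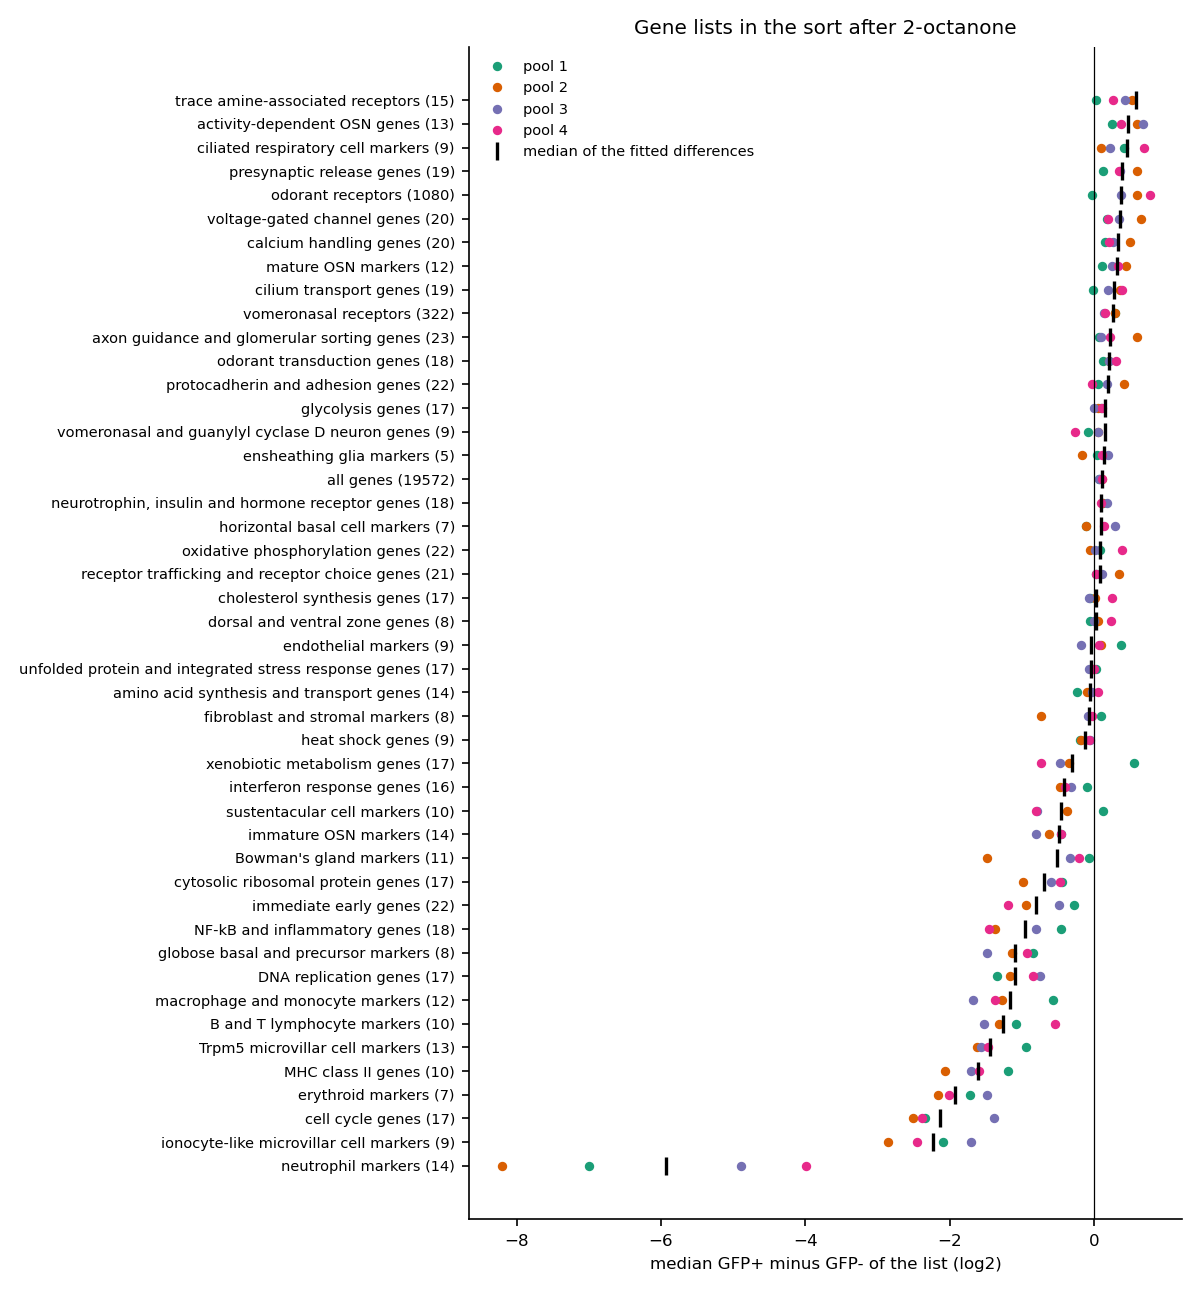
Median GFP+ minus GFP- difference (log2, x axis) of each gene list in each of the 4 octanone pools (coloured points), with the median of the fitted differences as a bar and the number of genes measured in brackets. Neutrophil markers lie lowest at a median of -5.93. The bars of the cell cycle and microvillar lists lie below -1, with the Trpm5 microvillar list at -0.94 in pool 1. Presynaptic, channel and mature neuron lists lie above 0, and immature neuron markers lie below 0 in every pool (median -0.48).

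S100a5, the gene whose activity the reporter follows, was higher in the GFP+ fraction of each pool. Its signal was 16.98, 16.63, 16.80 and 13.92 in GFP+ cells of pools 1 to 4 and 15.77, 15.76, 15.68 and 13.55 in GFP- cells. Both fractions of pool 4 were low, and the GFP+ array of that pool read below the GFP- arrays of the others, so the groups overlap. The fitted difference was 0.90 (SE 0.18, adjusted p = 0.0049 by limma, higher in 4 of 4 pools). The call rests on pairing the fractions by pool: without the block the adjusted p was 0.52, and without pool 4 the difference was 1.07.

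Markers of mature olfactory sensory neurons gave small differences. Omp, the olfactory marker protein, read 18.36 to 18.45 in GFP+ and 18.18 to 18.36 in GFP- cells, a difference of 0.12 (SE 0.13, adjusted p = 0.55 by limma). Of 12 mature neuron markers 2 were higher (8.78% of all genes were), none was lower, and the median difference was 0.32 beside 0.12 for all genes. The mean signal over the list was 15.65 to 15.97 in GFP+ and 15.33 to 15.66 in GFP- cells. The count of 2 was 1 without pool 2, and 0 without pool 3 or without the pool block. With a trend and robust estimation in the variance model, 7 of the 12 were called higher. With the arrays centred on their medians, 11 of the 12 were called higher.

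The transduction genes called higher were channel, phosphodiesterase and exchanger genes, by small differences. Whether steps of the cascade differ from each other was not tested. Of 18 transduction genes 5 were higher and 2 lower, with a median of 0.20, where 8.78% of all genes were higher and 10.9% lower. The lower count is near the share of all genes. The same shares of all genes stand beside each list that follows. The 5 became 2 without pool 2 or pool 3, 3 without pool 4 or the pool block, and 12 with centred arrays. Pde1c, the calcium-dependent phosphodiesterase that degrades cyclic AMP, read 16.11, 16.06, 16.02 and 16.05 in GFP+ against 15.53, 15.29, 15.35 and 15.31 in GFP- cells (difference 0.69, SE 0.13, adjusted p = 0.0024 by limma). Its groups did not overlap. Pde4a, another phosphodiesterase, differed by 0.59, Cngb1, a subunit of the cyclic nucleotide-gated channel, by 0.62, Slc24a4, the sodium-calcium-potassium exchanger, by 0.62 and Ano2 by 0.45. Cnga2, the main channel subunit, differed by 0.29 and Adcy3, the adenylyl cyclase, by 0.36, and neither was called (both were with centred arrays, at 0.54 and 0.62, and with a trend in the variance model, and Adcy3 also with dim probe sets left out). The 2 lower members were Grk3, a receptor kinase, and Rgs2, a regulator of G protein signalling that is also abundant in leukocytes. Rgs2 read 5.33, 5.35, 4.98 and 7.14 in GFP+ and 9.95, 11.46, 10.64 and 12.65 in GFP- cells, a difference of -5.48. Its GFP+ signal was at or under background in 3 of the 4 pools, so the size of its difference is not resolved there. In pool 4 the difference was -5.51. Most background probe sets of that GFP+ array lay under 7.93, and Rgs2 at 7.14 was within that range, so this size is not resolved either. Several of these calls were lost when a pool was left out. Without pool 2 the call was lost for Slc24a4 (0.42), Pde4a (0.50), Ano2 (0.41) and Grk3 (-0.65). It was lost without pool 3 for Cngb1 (0.51), Pde4a (0.58) and Ano2 (0.46), without pool 4 for Slc24a4 (0.62), Ano2 (0.49) and Grk3 (-0.58), and without pool 1 for Ano2 (0.46) and Grk3 (-0.72). None of the 19 cilium transport genes was called, at a median of 0.28 (all 19 were called higher under centring).

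Of 13 genes known to follow activity in these neurons, 7 were higher and 1 lower, with a median of 0.47. S100a5, the gene whose reporter defined the sort, is counted among the 7. Without the pool block 4 were higher. Pcp4l1, a relative of the calmodulin regulator Pcp4, read 15.42, 15.13, 15.18 and 14.58 in GFP+ and 13.83, 13.04, 13.74 and 12.93 in GFP- cells. Every GFP+ array lay above every GFP- array, and the difference was 1.69 (SE 0.14, adjusted p = 4.8e-06 by limma). Lrrc3b, a leucine-rich repeat membrane protein, differed by the same 1.69 (SE 0.18). Kirrel2, a homophilic adhesion molecule of axon terminals, read 15.12, 14.63, 15.01 and 13.95 against 13.60, 12.78, 14.04 and 12.70. Its groups overlap by the GFP+ array of pool 4, while each pool was higher in GFP+ cells (difference 1.40, SE 0.15, adjusted p = 4.8e-05 by limma). Pcdh10, a protocadherin, differed by 1.56, Sema7a, a semaphorin, by 0.88 and Nrp2, a semaphorin receptor, by 0.47. The call of Nrp2 was lost without pool 2 (0.43), pool 3 (0.45) or pool 4 (0.37), and those of Nrp2 and Kirrel2 were lost without the pool block (adjusted p = 0.098 and 0.052 by limma). The lower member was Calb2, the calcium-binding protein calretinin, at 13.34, 13.84, 13.73 and 13.71 in GFP+ and 16.43, 16.51, 16.58 and 16.10 in GFP- cells (difference -2.76, SE 0.15, adjusted p = 4.5e-07 by limma). The list was chosen with earlier results of these arrays known, so its direction is a description.

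Of 23 genes for axon guidance and glomerular sorting, 7 were higher and 2 lower, beside 8.78% and 10.9% of all genes. The 7 became 3 without pool 2, 4 without pool 3 or the pool block, and 15 with centred arrays. Epha5, an ephrin receptor, read 11.52, 11.35, 11.42 and 11.13 in GFP+ and 10.38, 10.22, 9.76 and 10.16 in GFP- cells, without overlap (difference 1.22, SE 0.17). Epha7 differed by 0.72. The lower ones were Sema3a, a repulsive semaphorin, at -0.99 and Efnb2, an ephrin, at -0.61, which was not called without pool 1 (-0.44), pool 2 (-0.63) or pool 4 (-0.56). Among 22 protocadherin and adhesion genes 5 were higher and 1 lower (14 higher with centred arrays), a lower share under the 10.9% of all genes. Pcdh8 differed by 1.26 and Pcdh7 by 1.20 in the direction of Pcdh10, and Pcdh11x by -0.56. The call of Pcdh11x was lost without pool 1 (-0.44) or pool 3 (-0.51).

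Of 20 voltage-gated channel genes 8 were higher and none lower, at a median of 0.36. The count depended on single pools, with 3 higher without pool 1, 2 without pool 2 or pool 3, 5 without pool 4 and 4 without the pool block, and it was 15 with centred arrays. Kcnmb3, an auxiliary subunit of the large-conductance calcium-activated potassium channel, read 14.85, 14.58, 14.79 and 14.03 in GFP+ and 13.46, 12.76, 13.29 and 12.62 in GFP- cells (difference 1.53, SE 0.12). Kcnn2, a small-conductance calcium-activated potassium channel, read 13.70, 13.49, 13.41 and 13.22 against 12.55, 12.24, 12.39 and 12.19 (difference 1.11, SE 0.12). For both genes every GFP+ array exceeded every GFP- array. Of 19 presynaptic genes 5 were higher, among them the synapsin Syn2 (0.88) and the vesicle protein Sv2b (0.72), and none was lower. The 5 became 8 without pool 1, 3 without pool 2 or pool 4, 0 without the pool block and 16 with centred arrays. Of 20 calcium handling genes 4 were higher (2 without pool 2, 15 with centred arrays), with the sodium-calcium exchanger Slc8a1 at 1.01 (0.78 and not called without pool 2). The 2 lower ones were Calb2 and the inositol trisphosphate receptor Itpr2 at -2.20, a share near the 10.9% of all genes. The cannabinoid receptor Cnr1 was the 1 called among 18 neurotrophin, insulin and hormone receptor genes (0.75), a share under the 8.78% of all genes, and 7 were called higher with centred arrays.

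**Figure D2:**
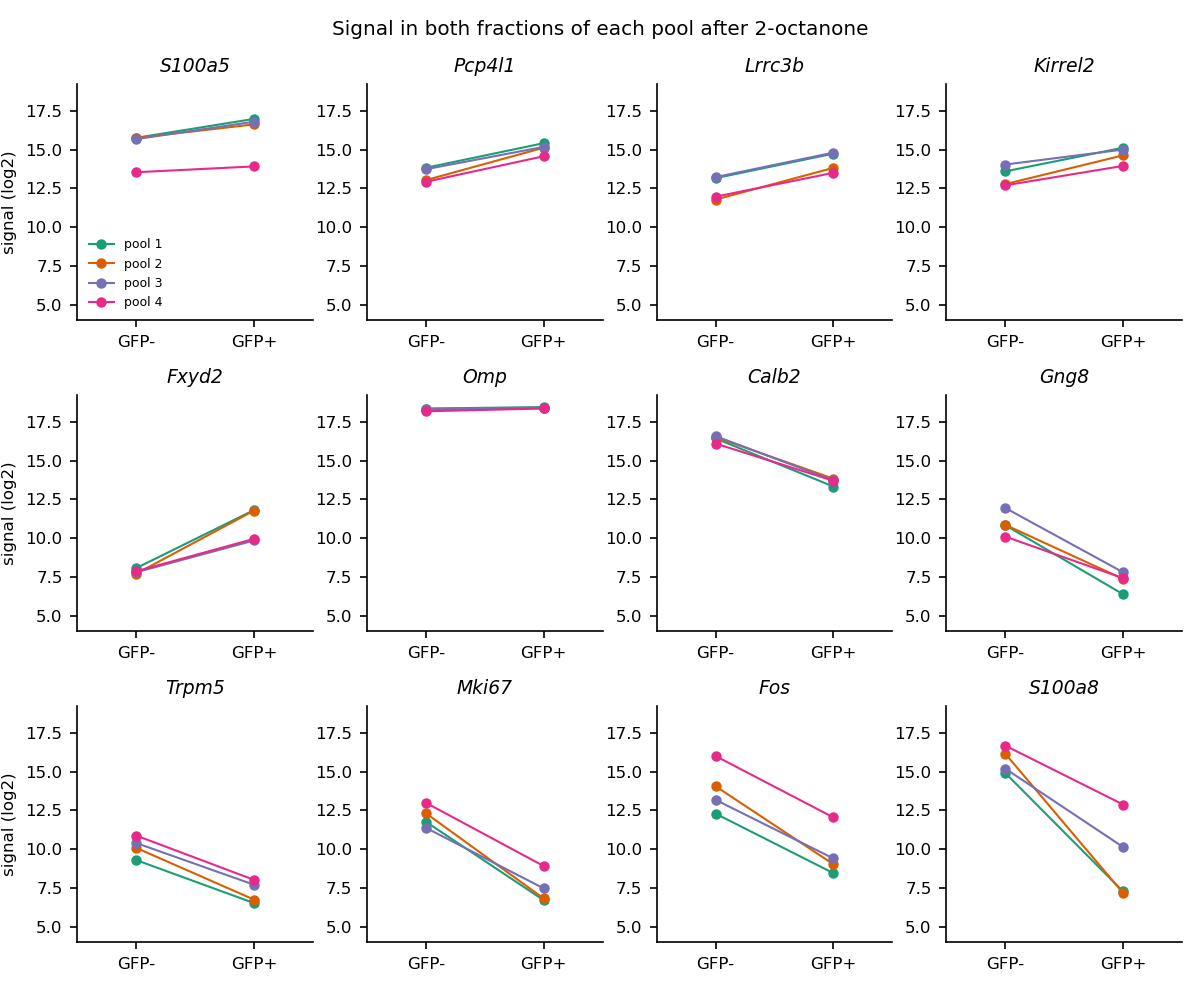
Signal (log2, y axis) of 12 genes in the GFP- and GFP+ fraction of each octanone pool, with a line joining both fractions of a pool. Lines for S100a5, Pcp4l1, Lrrc3b, Kirrel2 and Fxyd2 rise towards GFP+, that for Omp is nearly level, and those for Calb2, Gng8, Trpm5, Mki67, Fos and S100a8 fall in every pool. Pool 4 is low for S100a5 and high for Fos and S100a8 in both fractions.

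The immediate early genes, which neurons and other cells transcribe within minutes of a stimulus or of tissue handling, were lower in GFP+ cells for 10 of the 22 measured and higher for 1, at a median of -0.81. Leaving out any 1 pool also gave 10 lower, and the median was -0.40 without pool 4. Fos, a component of the AP-1 transcription factor, read 8.46, 9.04, 9.41 and 12.05 in GFP+ cells of pools 1 to 4 and 12.30, 14.06, 13.19 and 16.01 in GFP- cells. Within each pool the GFP- array was more than 8-fold brighter, and the difference was -4.15 (SE 0.20, adjusted p = 2.6e-07 by limma). Zfp36, which destabilises cytokine mRNA, differed by -3.84, Ier3 by -3.61, Btg2 by -3.29, Junb by -2.63 and Egr1 by -2.41. Egr3 differed by 0.25 and was not called. Npas4 was called higher at 0.58, but its signal of 3.38 to 4.39 lay under the mean of the 23 background probe sets (5.51), and it was not called after quantile normalisation or without pool 1 (0.54), pool 2 (0.55) or pool 3 (0.50). Most of these genes are also expressed by leukocytes, whose markers were lower in GFP+ cells (14 of 14 neutrophil markers, with list means of 6.87 to 11.21 in GFP+ and 13.26 to 14.94 in GFP- cells). Their part in the result was not tested.

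Of 1080 odorant receptors, 434 were higher (40.2%) and 245 lower (22.7%), against 6.94% and 10.2% of the 18492 other genes. The share of other genes that were higher moved with the settings: it was 4.83%, 2.84%, 3.99% and 3.60% without pools 1 to 4 (receptors 41.4%, 33.9%, 36.3% and 35.4%). With centred arrays 51.1% of receptors and 46.2% of other genes were higher and 20.9% and 8.31% lower, so that the shares differed little in the higher direction. Receptor differences ran from -5.89 to 4.58 with an SD of 1.80, and those of other genes had an SD of 0.70. The middle 50% of receptors spanned -0.72 to 1.41 and that of other genes -0.09 to 0.28. In all 4 pools, 461 receptors were higher and 261 lower, and 358 differed in sign between pools. All 4 GFP+ arrays lay above all 4 GFP- arrays for 338 receptors and below them for 201, beside 9.06% and 10.6% of all genes. Receptor differences in a pool correlated with those in another pool at r = 0.863 to 0.938, across genes. The median difference of the called higher receptors was 1.31, 1.93, 1.59 and 1.73 in pools 1 to 4, and that of the lower ones -2.84, -2.30, -2.35 and -1.69. These medians describe genes picked by the same contrast and carry no test.

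**Figure D3:**
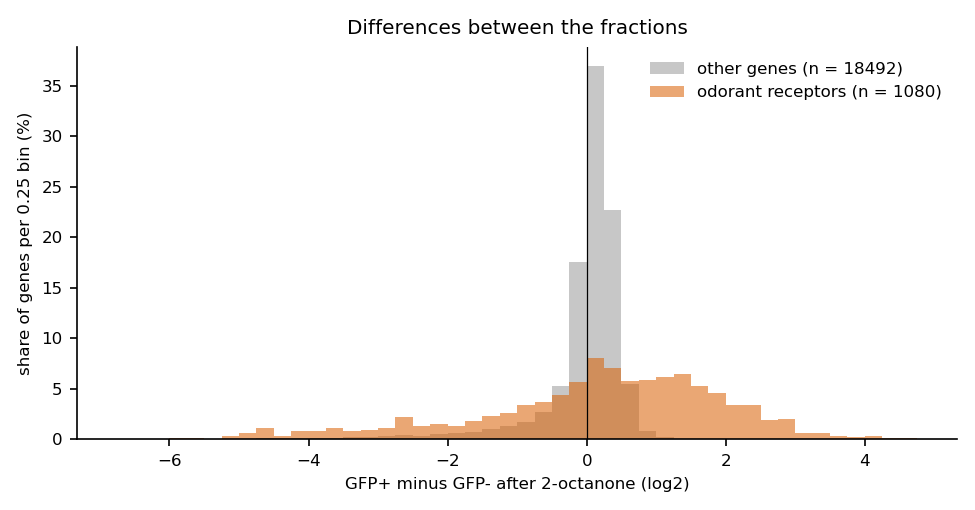
Share of genes (%, y axis) by GFP+ minus GFP- difference after 2-octanone (log2, x axis, bins of 0.25) for 1080 odorant receptors and 18492 other genes. Receptors spread widely to both sides of 0, and other genes are concentrated near 0 with a tail to the left.

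Olfr110 had the largest difference in favour of GFP+ cells. It read 13.97, 13.04, 12.44 and 11.90 in GFP+ and 8.89, 7.84, 7.54 and 8.76 in GFP- cells (difference 4.58, SE 0.33, adjusted p = 2.2e-06 by limma). Olfr309 read 15.36, 14.85, 14.55 and 14.63 against 10.87, 10.26, 9.33 and 11.72 (difference 4.30). Olfr536, Olfr481 and Olfr613 followed at 4.19, 4.18 and 4.02, and Olfr372 and Olfr1093 at 3.90 and 3.76. The GFP- signal was at or under background on 2 arrays for Olfr613 and 3 for Olfr372. For Olfr110, Olfr309 and Olfr536 every GFP+ array was above every GFP- array.

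In the other direction, Olfr231 read 4.18, 3.95, 6.97 and 6.08 in GFP+ and 10.90, 11.78, 11.71 and 10.36 in GFP- cells (difference -5.89, SE 0.54, adjusted p = 1.3e-05 by limma). In the GFP+ cells of pools 1 and 2 it lay under the background mean, so the size of its difference is not resolved there. In pools 3 and 4 the difference was -4.74 and -4.27. Most background probe sets of those GFP+ arrays lay under 7.80 and 7.93, and Olfr231 at 6.97 and 6.08 was within that range. The size of its difference is therefore not resolved in pools 3 and 4 either. Olfr1507 read 6.76, 7.42, 9.78 and 10.57 against 13.99, 14.05, 14.51 and 14.38 (difference -5.60). Its GFP+ signal was higher in pools 3 and 4 than in pools 1 and 2, while its GFP- signal stayed within a narrow range. Olfr1178, Olfr677 and Olfr1322 differed by -5.24, -5.20 and -5.14.

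Odorant receptor genes lie in clusters, and neighbours were found on the same and on opposite sides. Among 960 pairs of receptors adjacent in the order of the RefSeq annotation, both members were called in 401. They had the same direction in 267 pairs (66.6%) and opposite directions in 134. For called receptors on different chromosomes the share with the same direction was 53.6%. The median gap between both differences of a pair was 1.16 for neighbours and 2.04 for receptors on different chromosomes. These shares describe genes that share arrays and carry no test, and near-identical neighbours can share hybridisation signal.

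In 62 of the opposite pairs the differences were over 16-fold apart, among them Olfr99 and Olfr101 of chromosome 17, whose promoters are printed above. Olfr99 read 7.96, 7.36, 8.65 and 9.73 in GFP+ and 13.48, 13.13, 13.75 and 13.23 in GFP- cells (difference -4.97, SE 0.31). Olfr101 read 13.22, 12.18, 12.30 and 11.14 against 8.98, 8.51, 8.77 and 8.20 (difference 3.59, SE 0.19). In every pool Olfr99 was the lower and Olfr101 the higher in GFP+ cells, and neither gene's groups overlap. Olfr969 (-4.76) and Olfr970 (3.02), and Olfr1507 (-5.60) and Olfr1508 (0.83), were further pairs. Another was Olfr424 (3.12) with Olfr231, whose GFP+ signal was near or under background in every pool. Other neighbours went together: Olfr826 and Olfr827 differed by -4.55 and -4.30, and Olfr69 and Olfr68 by -4.71 and -4.14. Pairs named in this paragraph were picked after their values were seen.

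**Figure D4:**
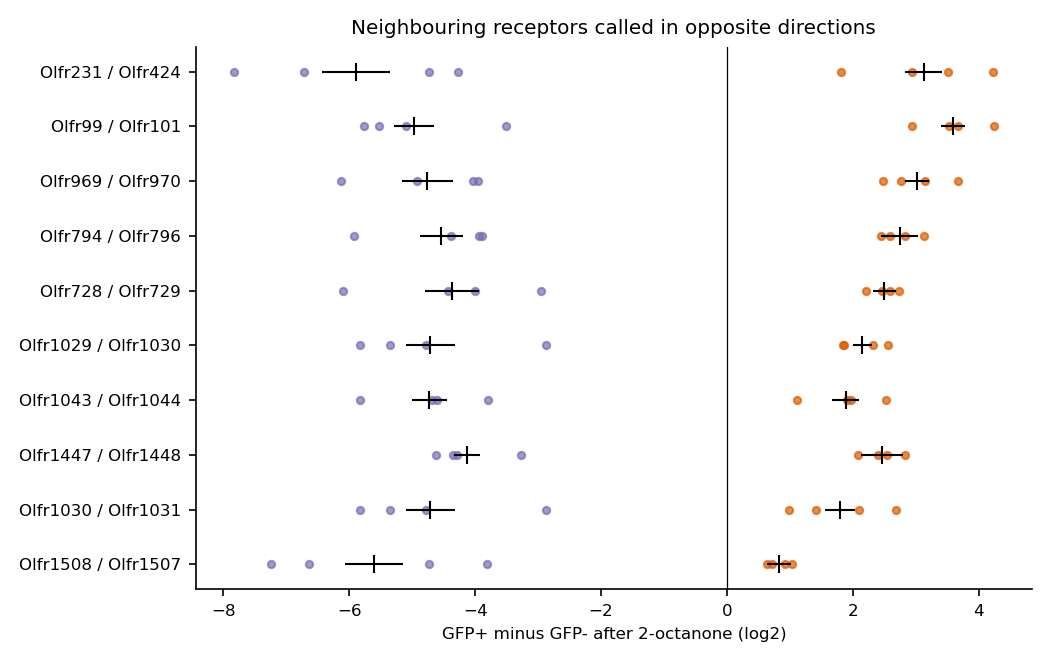
GFP+ minus GFP- difference after 2-octanone (log2, x axis) in each of 4 pools for the 10 pairs of neighbouring receptors with opposite calls and the widest gap, orange for the member that was higher and purple for the lower one. Black marks give the fitted difference with its SE, and in each pair the points of both members lie on opposite sides of 0. 1 receptor stands in 2 of the 10 pairs.

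The trace amine-associated receptors, a second family of olfactory receptors, also split. Of 15 measured, 5 were higher and 5 lower. Taar9 read 13.68, 13.61, 13.95 and 11.70 in GFP+ and 11.66, 10.25, 11.82 and 9.63 in GFP- cells (difference 2.39, SE 0.24). Taar4 differed by 2.19 and Taar5, at or under background on all 4 GFP- arrays, by 1.09. Taar2 differed by -3.58, Taar7a by -2.59 and Taar6 by -1.75. Vomeronasal receptors, which belong to another organ, served as a contrast: 15 of 322 were higher and none lower, beside 8.78% and 10.9% of all genes. Their mean signal in GFP+ cells (4.92 to 4.99) was under the background mean. Even so, their median difference was 0.26, with 0.29, 0.30, 0.14 and 0.16 in pools 1 to 4. The transduction, axon guidance, cilium transport and mature neuron lists had medians of 0.20, 0.22, 0.28 and 0.32, and all genes 0.12.

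Few other genes were much higher in GFP+ cells. Of 18492 genes that are not odorant receptors, 52 were called higher by over 2-fold and 1197 lower (217 and 964 with centred arrays, 111 and 1065 with pools 1 and 2 alone). Fxyd2, a regulatory subunit of the sodium pump, led them with 11.82, 11.79, 9.86 and 9.96 in GFP+ and 8.08, 7.72, 7.81 and 7.87 in GFP- cells (difference 2.99, SE 0.37, adjusted p = 0.00012 by limma). Its GFP+ signal was higher in pools 1 and 2 than in pools 3 and 4, and with pools 1 and 2 alone the difference was 3.90. Caly, a vesicle protein of dopamine receptor signalling, differed by 1.71. Kcng1, a modifying subunit of voltage-gated potassium channels, differed by 1.52, Rarb, a retinoic acid receptor, by 1.41 and Avp, the vasopressin precursor, by 1.35.

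Of 14 immature neuron markers 7 were lower in GFP+ cells and none higher, and 7, such as the tubulin Tubb3 (0.15), were not called. Gng8, a G protein gamma subunit of immature neurons, read 6.39, 7.38, 7.81 and 7.43 in GFP+ and 10.84, 10.87, 11.96 and 10.11 in GFP- cells (difference -3.69, SE 0.26, adjusted p = 2.0e-06 by limma). Gap43, the growth cone protein, differed by -2.48 and Nhlh1, a helix-loop-helix factor, by -3.67. With centred arrays 2 members of the list were called higher. Of 8 globose basal and precursor markers 5 were lower, among them Kit (-2.78) and Sox2 (-1.80). Among cell division genes, 16 of 17 cell cycle genes and 12 of 17 DNA replication genes were lower, none was higher, and the medians were -2.14 and -1.10. Whether basal cells, leukocytes or other cells of the GFP- fraction gave the signal of these genes was not tested. Mki67 read 6.72, 6.83, 7.48 and 8.92 in GFP+ and 11.77, 12.32, 11.39 and 13.00 in GFP- cells (difference -4.63, SE 0.33).

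Genes of both microvillar cell types were lower in GFP+ cells. Of 13 Trpm5 microvillar markers 10 were lower, at a median of -1.45, and the channel Trpm5 itself read 6.53, 6.76, 7.72 and 8.03 in GFP+ and 9.30, 10.09, 10.40 and 10.89 in GFP- cells (difference -2.91, SE 0.18). Of 9 ionocyte-like markers 8 were lower, at a median of -2.23. Among them were the transcription factors Foxi1 (-2.90) and Ascl3 (-3.31) and the chloride channel Cftr (-2.64).

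Of 10 sustentacular markers 4 were lower, led by the keratins Krt18 (-2.43) and Krt8 (-2.06). Cyp2g1, an olfactory cytochrome P450 of these cells, read 15.28, 15.51, 14.33 and 14.50 in GFP+ and 14.39, 15.86, 14.90 and 15.70 in GFP- cells. It was higher in GFP+ cells in pool 1 and lower in pools 2, 3 and 4, and it was not called (-0.31, SE 0.30, adjusted p = 0.51 by limma). The list's median was -0.46 over 4 pools, -0.85 without pool 1, -0.19 without pool 4 and 0.02 with pools 1 and 2 alone. Of 11 Bowman's gland markers, Lyz2 included, 3 were lower. The part of leukocytes in this list was not tested. The medians of horizontal basal (0.10), endothelial (-0.04) and fibroblast (-0.06) markers were within 0.2 of 0, and each changed sign under quantile normalisation or centring of the arrays. Single members were still called. Of 7 horizontal basal markers 1 was higher and 2 lower (differences from -2.08 to 0.44). Of 9 endothelial markers 1 was lower, and 0 after quantile normalisation. The 2 lower genes of the fibroblast list were Rgs5, a pericyte gene, at -2.79 and the smooth muscle actin Acta2 at -1.48, the latter at or under background on 2 GFP+ arrays and not called without pool 2 (-1.02) or pool 4 (-1.26).

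All 14 neutrophil markers were lower, at a median of -5.93. Mmp8, neutrophil collagenase, read 5.41, 5.82, 8.08 and 11.74 in GFP+ and 13.41, 14.74, 13.97 and 15.91 in GFP- cells (difference -6.74, SE 0.57, adjusted p = 7.6e-06 by limma). S100a8, a calprotectin subunit, read 7.28, 7.19, 10.15 and 12.89 against 14.92, 16.16, 15.20 and 16.68 (difference -6.37, SE 0.63). Both genes were brighter in the GFP+ fractions of pools 3 and 4 than in those of pools 1 and 2, and neither gene's groups overlap. Over the list, the mean signal was 6.91, 6.87, 8.86 and 11.21 in GFP+ and 13.42, 14.37, 13.26 and 14.94 in GFP- cells, and the median difference per pool was -7.00, -8.21, -4.89 and -3.99. With pools 1 and 2 alone all 14 were still lower, at a median of -7.57. Most background probe sets of the GFP+ arrays lay under 7.96 in pool 1 and 7.90 in pool 2. The GFP+ list means of 6.91 and 6.87 were within that range, so the sizes in pools 1 and 2 are limited by background.

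Other blood cell genes went the same way. Of 12 macrophage and monocyte markers 8 were lower, with Ly6c2 at -6.67 and Ccr2, a chemokine receptor of monocytes, at -5.56 (at or under background on 2 GFP+ arrays), and 4, the complement genes of tissue macrophages among them, were not called. Of 10 lymphocyte markers 6 were lower, including the B cell receptor component Cd79a (-2.67), and of 7 erythroid markers 6 were lower, including the carbonic anhydrase Car1 (-5.07). Of 10 genes of MHC class II presentation 8 were lower, with H2-Ab1 at -4.27, and of 18 NF-kB and inflammatory genes 12 were lower (7 without the pool block), with the cytokines Il1b at -4.32 and Tnf at -3.15, the latter at or under background on 3 GFP+ arrays. Of 16 interferon response genes 6 were lower and 2 higher, Ifit1 (0.71) and Mx2 (0.65), both of which lost the call without pool 2 (0.51 and 0.58).

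Of 17 cytosolic ribosomal protein genes 14 were lower and none higher, at a median of -0.69, with Rplp0 at -1.50. The 14 became 7 without pool 2, 8 without pool 3 and 9 with centred arrays. None of 22 oxidative phosphorylation genes was called, at a median of 0.09 (13 were called higher under centring). Of 17 glycolysis genes 5 were lower and 2 higher (9 higher with centred arrays). The lower ones included the glucose transporter Slc2a3 (-5.36, at or under background on 3 GFP+ arrays) and lactate dehydrogenase Ldha (-2.96), and the higher ones were the neuronal enolase Eno2 (0.70) and the phosphofructokinase Pfkp (0.46), which was not called without pool 1 (0.42) or pool 2 (0.46). Ribosomal, glycolytic and immediate early genes are expressed by leukocytes too, and the part of the neutrophil difference in these lists was not tested.

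The sort after vehicle gave 4288 calls (21.9%), 1948 higher (9.95%) and 2340 lower (12.0%) in GFP+ cells. Of the genes called after 2-octanone, 2896 were called there as well, which is 75.1% of the octanone and 67.5% of the vehicle calls, and 2895 of them had the same sign. The exception was Phxr4 (-0.56 after 2-octanone and 0.50 after vehicle), whose call after 2-octanone was lost without pool 2 (-0.61), pool 3 (-0.55) or pool 4 (-0.44). The neutrophil markers had a median of -7.47 after vehicle and -5.93 after 2-octanone, and for none of the 14 was that change called. For receptors, 629 were called in both sorts, all with the same sign. The difference between the exposures was itself called for 0 of 19572 genes by limma (0.00%), with 792 genes at an unadjusted p under 0.05 and a smallest adjusted p of 0.999. Those 792 genes are a smaller share of all genes than the 0.05 that chance would give. Olfr796 differed by 2.74 between fractions after 2-octanone and by 0.73 after vehicle, and Olfr393 by -4.20 and -6.04. Nr4a2, an immediate early gene, differed by -0.24 and -1.69. Olfr796, Olfr393 and Nr4a2 were among the genes with the smallest unadjusted p for the change with exposure, and none of the 3 passed the test.

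**Figure D5:**
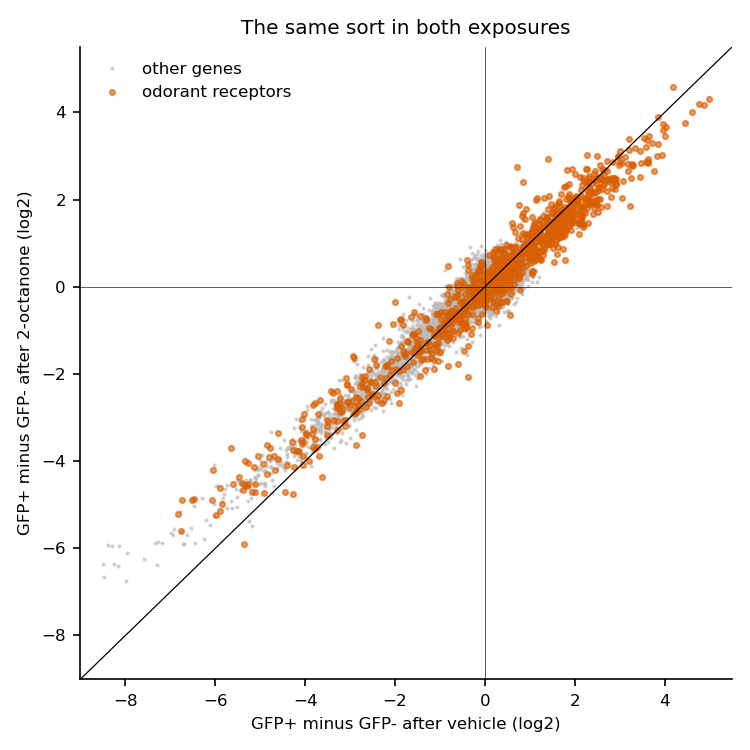
GFP+ minus GFP- difference of each gene after 2-octanone (log2, y axis) against that after vehicle (log2, x axis), with odorant receptors in orange, other genes in grey and the line of equal values in black. Receptors lie along the line over their whole range, and the other genes extend to the lower left, where the lowest of them lie above the line.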

How the data were processed

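Per the submitters' processing notes, the deposited values were made with Affymetrix Expression Console. Algorithm, log base and genome build are not given in the sources used here. The authors' deposited values (2.13 to 18.99) were read as normalised log2 signals from their range, and no further scaling was applied. The labels' protocols give 50 to 100 ng of total RNA per sample. Of 28846 probe sets, 9274 name no gene or are controls. The other 19572 stand for 19505 symbols, and all of their gene identifiers were found in the RefSeq table. A gene with several probe sets is given by the one with the highest mean.

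All 16 arrays were fitted with limma 3.58.1 in R 4.3.3 (lmFit, eBayes), with the pool as a fixed block, a GFP+ term for each exposure and 6 residual degrees of freedom (prior 5.02). Tests were two-sided, with Benjamini-Hochberg adjustment over 19572 probe sets and calls under 0.05. The script was tested on simulated data. Pairing rests on both fractions coming from the same mice. Residuals of the fractions of pools 1 to 4 correlated at 0.26, 0.00, 0.32 and 0.46, and those of different pools at -0.44 to 0.21. P-values rest on how far the difference between both fractions of a pool varied over pools of 3 mice, with 1 estimate for both exposures. Differences in level between pools are taken out by the block.

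Odorant receptors are protein-coding genes with an Olfr symbol (1080). The members, the 42 gene lists (631 genes, 66 not named on the array) and the promoters were chosen with earlier results of these data known. Named genes were S100a5 and Omp, the 20 other genes and the 12 receptors that differed most, in either direction, of the called genes whose sign was shared by all pools, up to 4 members of each list by p, 6 genes in each direction by p for the change with exposure, and 6 with the widest spread. Only some are printed. Chosen after their values were seen were Ano2, Gap43, Spi1, Slc24a4, Cnga2, Grk3, Efnb2, Pcdh11x, Ier3, Egr1, Egr3, Npas4, Olfr424, Olfr970, Olfr1508, Olfr826, Olfr827, Olfr69, Olfr68, Taar5, Taar2, Taar7a, Taar6, Tubb3, Foxi1, Cftr, Cyp2g1, Ifit1, Mx2, Eno2 and Pfkp. Alternatives were the block, scaling, filters, the spread model, the threshold and leaving out pools.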

Additional observations from a re-analysis of the deposited data

Results flagged for a closer look

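In groups of 4 arrays, 17 of 256 groups of the genes named in the text held an array far from the other 3 by Dixon's ratio, where chance gives about 1 in 20 groups. Of the 17, 16 were arrays of pool 4. S100a5 read 13.92 in GFP+ and 13.55 in GFP- cells of that pool, below the other pools (16.63 to 16.98 and 15.68 to 15.77). The replicate 4 pool of the vehicle group read 13.22 and 13.11.

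Among GFP+ arrays, pool 4 was low for Syn2 (13.43, others 14.04 to 14.13), Slc8a1 (11.16, others 11.73 to 11.78), Taar9 (11.70, others 13.61 to 13.95) and Olfr372 (7.56, others 9.91 to 10.14). It was high for Rgs2 (7.14, others 4.98 to 5.35), Ier3 (8.53, others 7.03 to 7.26), Car1 (8.47, others 5.61 to 5.86), Tekt1 (12.05, others 11.63 to 11.66), Gstp1 (7.71, others 7.17 to 7.23) and Slc7a11 (7.40, others 6.35 to 6.52). Among GFP- arrays, pool 4 was low for Taar7a (8.61, others 10.38 to 10.61), Caly (7.40, others up to 8.09) and Tubb3 (13.99, others 14.85 to 14.94), and high for Slc7a11 (9.86, others 7.02 to 7.34). The GFP- array of pool 3 was high for Olfr68 (12.59, others 11.50 to 11.68).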

How the results depend on the processing

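The 434 higher and 245 lower receptors stayed within 1.5 times their count in every alternative run. Leaving out each pool in turn gave 366 to 447 and 205 to 243 of them, 2606 to 3295 genes called, 891 to 1341 higher and 1715 to 1954 lower. With arrays centred on their medians 10852 genes were called, 9090 of them higher. With pools 1 and 2 alone, added with the pools 1 to 3 setting after seeing the data, 1966 were called, 582 higher and 1384 lower. The higher count was 1036 without the replicate block (2955 calls, 2854 shared with the 3855), 1096 with unnamed probe sets included and 2813 at an adjusted p under 0.1. The lower count was 1154 with dim probe sets left out. With only the 8 octanone arrays fitted, 3508 genes were called, 1424 higher and 2084 lower, and 5 of 20 channel genes were higher. Nrp2, Reep1 and Efnb2 were not called in that fit. No shared call changed sign in any alternative, and the change with exposure had 0 calls in each alternative that could test it. Of 121 called genes named in the text, 97 kept the call without any single pool, and 19 lost it without the replicate block. With pools 1 and 2 alone, 0 of 18 transduction, 2 of 20 channel and 2 of 19 presynaptic genes were higher (5, 8 and 5 with all pools), and 10 of 22 immediate early genes were lower. The sign reversed only for genes that were not called: Cox7a2 (0.0546), Rgs9 (0.0143) and Nr4a2 (0.0200) with centred arrays, Cyp2g1 (0.27) with pools 1 and 2 alone, Fabp7 (-0.0849) with pools 1 to 3 of both exposures. Over single pools left out, Fabp7 ranged from -0.0849 to 0.32 and Pramel29 from -0.0946 to 0.19. The causes were not tested. Signals near background limit low genes: 4793 genes had a mean at or under 5.51, and 7.53% of them were called. The median of the background probe sets was higher, at 6.32 to 6.70 on the GFP+ arrays after 2-octanone. Sizes of differences can therefore also be limited for genes somewhat above 5.51.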

Other observations

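Further lists had 1 to 3 genes called in the sort after 2-octanone, where 8.78% of all genes were higher and 10.9% lower. Of 9 ciliated respiratory cell markers 2 were higher (8 with centred arrays), Ccdc113 (0.74) and the tektin Tekt1 (0.51), and none was lower. Of 21 receptor trafficking and choice genes, the transport protein Reep1 was higher (0.44) and Lbr, the lamin B receptor, was lower (-1.74), and 10 of the 21 were higher with centred arrays. Of 5 ensheathing glia markers Sox10 was lower (-0.65), and of 8 zone genes Nrp2 was higher. Of 9 genes of vomeronasal and guanylyl cyclase D neurons 3 were lower, Gnai2 (-3.57), Pde2a (-2.99) and Car2 (-0.60), of which Car2 is also in the erythroid list. The calls of Car2 and Reep1 were lost without any 1 of the 4 pools (-0.66 to -0.57 and 0.40 to 0.49), that of Tekt1 without pool 3 (0.47) or pool 4 (0.45), and that of Ccdc113 without pool 4 (0.52).

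Stress and metabolic lists had 2 or 3 genes called each. Of 9 heat shock genes 2 were lower (0 without the pool block), Hspa1b (-1.20) and Hspa1a (-1.13). Of 17 unfolded protein and integrated stress response genes, Trib3 was higher (0.49) and Xbp1 was lower (-0.46). Of 14 amino acid genes 3 were lower, with the cystine transporter Slc7a11 at -1.18. Of 17 cholesterol synthesis genes Insig1 (-1.04) and Hmgcs1 (-0.53) were lower. Of 17 xenobiotic metabolism genes 2 were lower, Gstp1 (-1.54) and Aldh1a1 (-0.82), and Cyp2b10 was higher (0.78). The median of that list was -0.31, with 0.56, -0.35, -0.47 and -0.74 in pools 1 to 4, and 5 of its genes were lower without pool 1 and 1 without pool 2, 3 or 4. Calls were lost without any 1 of the 4 pools for Xbp1 (-0.51 to -0.42) and Cyp2b10 (0.51 to 0.88). They were lost without pool 1 or 4 for Trib3 (0.48 and 0.40), without pool 1, 3 or 4 for Hmgcs1 (-0.43, -0.49 and -0.59) and without pool 2, 3 or 4 for Aldh1a1 (-0.76, -0.81 and -0.78). Slc7a11 differed by -0.75 without pool 4. The medians of the heat shock, stress response and amino acid lists (-0.12, -0.05 and -0.06) turned positive with centred arrays.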
